A study of Mus musculus with 9 samples.

Results

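The genes that carry a cell through its cycle and copy its DNA, 34 in all, were followed in mouse liver across 3 iron diets. They were taken from the per-library count tables by gene symbol, and all 34 were found among the 23420 genes listed. By role they comprise 3 D cyclins, 3 genes of entry into S phase, 7 genes of replication licensing and the replication fork, 3 genes of nucleotide supply and 18 genes of mitosis. RNA of 9 livers was sequenced as 9 libraries, 1 for each mouse. The low-iron mice ate 2.5 mg iron per kg of food, the sufficient-iron mice 37.5 mg per kg and the high-iron mice 1000 mg per kg, with 3 separate mice on each diet. All 9 were wild-type C57BL/6 males (strain C57/BL6 in the labels) on AIN-93G, a purified soy-free feed, eaten for 50 days from the age of 5 weeks, with harvest at 12 weeks. Hemojuvelin knockouts of the same protocol are not analysed here. Libraries carry the numbers in their titles, which are 1, 5 and 9 for low iron, 2, 6 and 10 for sufficient iron and 4, 8 and 12 for high iron, and values of a diet follow that order.

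Most hepatocytes of an adult liver rest outside the cell cycle and return to it after tissue loss or injury. D cyclins answer growth signals, and with their kinase partners they release E2F factors from the retinoblastoma proteins. E2F factors then switch on the genes of S phase, among them the MCM helicase subunits that license replication origins and ribonucleotide reductase, an iron-dependent enzyme that makes deoxynucleotides. Later in the cycle a second wave of genes, driven by B-MYB and FOXM1 with the MuvB complex at CHR elements and by NF-Y at CCAAT boxes, supplies the kinases, cyclins and spindle proteins of mitosis.

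Promoters of the mitotic and the replication members are shown first, since these groups stood out to different degrees. RefSeq promoters (GRCm38.p6, 250 bases before the start to 50 after) were at hand for 26 of the 34 members, as 28 promoters. The CHR letters TTTGAA, sought on both strands like the other motifs, stood in 10 of 14 promoters of mitotic members (71.4%) and in 1 of 7 of the replication members (14.3%, Mcm2), against 17.9% of all 32851 promoters. The mitotic promoters without these letters were those of Birc5, Bub1, Ccnb1 and Nusap1. E2F-type letters (TTTCGCGC, TTTGGCGC or TTTCCCGC) stood in 1 of the 14 mitotic promoters (7.14%, Cdk1) and in 4 of the 7 replication promoters (57.1%, Mcm3, Mcm5, Mcm6 and Mcm7), against 1.84% of all promoters. CCAAT stood in 22 of the 28 member promoters (78.6%), against 37.4% of all. A match of letters is a description and not a site of binding.

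The promoters of 3 mitotic and 2 replication members that the results below turn on are shown 5′ to 3′ on the strand of the gene, with the matched letters in capitals. They were chosen after the values were seen, as members that stood far above the rest in 1 library. Cdc20 lies on the minus strand at chr4:118437294-118437593, Ccnb2 on the minus strand at chr9:70421505-70421804 and Top2a on the minus strand at chr11:99024140-99024439. Mcm5 lies on the plus strand at chr8:75109259-75109558 and Mcm6 on the minus strand at chr1:128359656-128359955. Capitals mark CCAAT (or ATTGG on the other strand) and TTTGAA (or TTCAAA) in the first 3, and CCAAT or ATTGG and the E2F-type letters in the last 2. In Mcm5 and Mcm6, 1 run of capitals joins a pair of E2F-type matches that overlap on opposite strands.
Cdc20: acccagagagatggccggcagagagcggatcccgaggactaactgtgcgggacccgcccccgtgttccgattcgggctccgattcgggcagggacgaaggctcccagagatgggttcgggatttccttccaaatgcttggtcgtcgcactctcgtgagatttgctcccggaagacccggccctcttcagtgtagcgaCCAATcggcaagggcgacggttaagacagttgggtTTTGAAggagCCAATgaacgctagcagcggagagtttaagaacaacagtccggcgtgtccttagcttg
Ccnb2: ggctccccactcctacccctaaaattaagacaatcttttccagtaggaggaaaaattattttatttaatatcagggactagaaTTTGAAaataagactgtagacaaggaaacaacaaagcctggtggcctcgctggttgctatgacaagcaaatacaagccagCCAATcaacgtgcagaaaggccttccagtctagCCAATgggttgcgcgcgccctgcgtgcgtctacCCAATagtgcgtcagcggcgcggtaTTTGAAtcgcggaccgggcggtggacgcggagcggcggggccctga
Top2a: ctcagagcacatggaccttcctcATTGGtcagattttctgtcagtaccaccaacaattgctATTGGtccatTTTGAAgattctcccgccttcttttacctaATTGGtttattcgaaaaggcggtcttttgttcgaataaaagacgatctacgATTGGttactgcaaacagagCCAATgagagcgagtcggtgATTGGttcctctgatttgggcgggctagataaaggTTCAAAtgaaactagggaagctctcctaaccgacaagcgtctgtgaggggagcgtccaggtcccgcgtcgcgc
Mcm5: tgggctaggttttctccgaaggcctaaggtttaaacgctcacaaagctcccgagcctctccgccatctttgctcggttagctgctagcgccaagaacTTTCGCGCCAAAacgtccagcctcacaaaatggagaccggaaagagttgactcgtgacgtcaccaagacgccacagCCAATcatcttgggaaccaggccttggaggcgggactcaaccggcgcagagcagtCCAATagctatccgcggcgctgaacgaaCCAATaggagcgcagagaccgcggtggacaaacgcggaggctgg
Mcm6: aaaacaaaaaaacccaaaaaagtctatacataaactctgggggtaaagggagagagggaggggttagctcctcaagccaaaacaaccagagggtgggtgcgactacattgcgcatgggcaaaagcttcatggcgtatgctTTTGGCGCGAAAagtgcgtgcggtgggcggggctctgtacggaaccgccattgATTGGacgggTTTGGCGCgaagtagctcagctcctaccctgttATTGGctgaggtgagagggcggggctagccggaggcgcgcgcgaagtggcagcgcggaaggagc
In Cdc20 the CHR letters began at position -18 from the start, between a CCAAT at -53 and another at -8. The CHR letters of Ccnb2 began at -167 and at 5, and its 3 CCAAT boxes at -87, -54 and -21. Neither Mcm5 nor Mcm6 held the CHR letters in this window.

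The libraries held 21.99 M to 33.81 M reads in genes, the most in sufficient-iron replicate 6. The precursor of ribosomal RNA, Rn45s, made up 43.7% (low-iron replicate 1) and 40.5% (high-iron replicate 12) of these, and 12.5% to 23.8% in the other 7, with the lowest share in sufficient-iron replicate 6. Levels are therefore given as CPM, each library's counts brought to a common total on library sizes scaled by TMM, on which a few very abundant genes weigh less. Hepatocyte markers were abundant in every library, with a summed level of 43600 to 67510 CPM over 6 genes. As these are bulk samples, fewer cells of a type and less RNA per cell cannot be told apart. Reads aligned to several places or overlapping several genes are outside the gene counts, and the strand setting of the counting is not given in the sources used here.

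Across the diets no member passed the threshold. edgeR's quasi-likelihood test, adjusted by Benjamini and Hochberg over 13020 genes at 0.05, called 0 of the 33 tested members in high over sufficient iron (0.215% of all tested genes were called), 0 in low over sufficient iron (0% of all genes), 0 in high over low iron (0.507%) and 0 in the test of the 3 diets together (0.215%). Bub1, a spindle checkpoint kinase, had too few reads to be tested. At an unadjusted p under 0.05 the counts were 8 members in high over sufficient iron (9.28% of all genes), 8 in low over sufficient iron (11.2%), 2 in high over low iron (9.65%) and 5 over the 3 diets (10.7%). In high over sufficient iron 7 of these were lower (5.12% of all genes) and 1, Ccnd3, was higher (4.16%). In low over sufficient iron 8 were lower (5.41% of all genes) and 0 higher (5.79%), and in high over low iron 2 were higher (4.22%) and 0 lower (5.44%). DESeq2 called 0 members at an adjusted p under 0.05 in high over sufficient iron (1.71% of the genes it gave one), 2 in high over low iron (2.8%) and 2 over the 3 diets (3.17%), the 2 being Ccnd1 and Ccnd3. In low over sufficient iron its filter left an adjusted p for 1156 genes, 0 of them members (9.08% of those genes were called). With limma-voom 0 members were called in each, against 0.2% of all genes in high over sufficient iron, 0% in low over sufficient iron, 0.492% in high over low iron and 0.223% over the 3 diets.

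The fold changes nevertheless leaned 1 way. In high over sufficient iron 32 of 33 members had a log2 fold change below 0 (51.9% of all genes), with a median of -0.61 against -0.01 over all genes. In low over sufficient iron 31 of 33 lay below 0 (50.6% of all genes), with a median of -0.73 against -0.004 over all genes. These comparisons share the sufficient-iron libraries. In high over low iron 18 of 33 lay below 0 (51.2% of all genes) and the median was -0.03. Without sufficient-iron replicate 6 the medians became -0.07 in high over sufficient iron, -0.07 in low over sufficient iron and -0.03 in high over low iron, and 20, 18 and 18 of the 33 members lay below 0, against 50.9%, 50.7% and 50.6% of all genes.

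**Figure D1:**
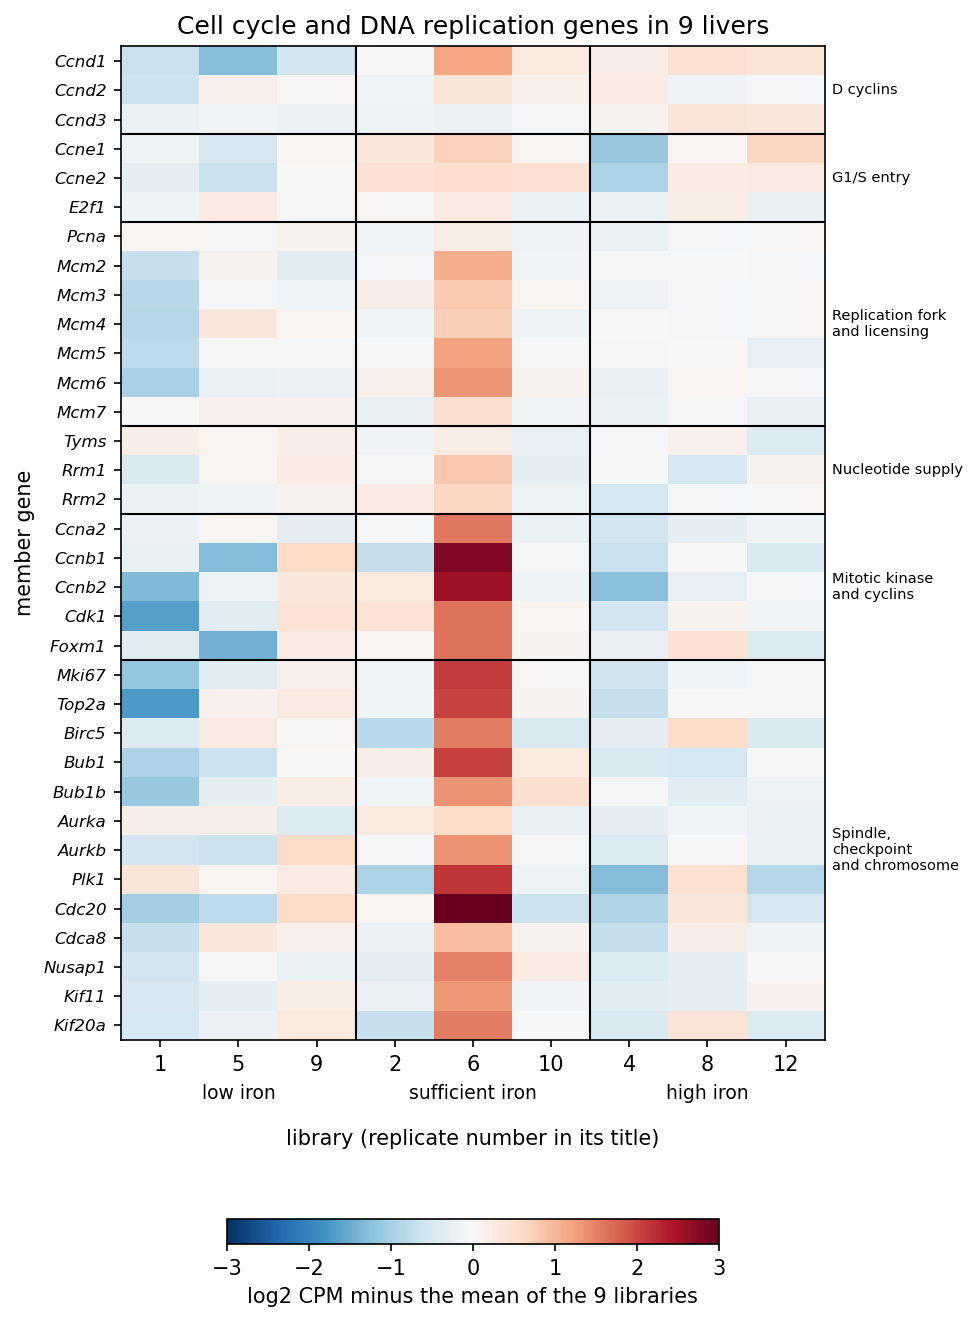
Level of each of the 34 members (rows, by role) in each of the 9 libraries (columns, by diet and title number), as log2 CPM (prior count 2) minus the mean of the gene over the 9 libraries, red above and blue below. The column of sufficient-iron replicate 6 is red for nearly all rows, deepest for Cdc20, Ccnb1 and Ccnb2, while Ccnd1 is blue in the 3 low-iron columns.

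A single library held this pattern. Sufficient-iron replicate 6 had the highest CPM of the 9 libraries for 32 of the 33 tested members (97%), against 19.6% of all 13020 tested genes. In 15 of the 33 members (45.5%) its level was at least 2 times that of every other library, which held for 98 of all genes (0.753%). The exception was Ccnd3, highest in high-iron replicate 8. Low-iron replicate 1, with the fewest gene reads, had the lowest level of 15 of the 33 members (45.5%), against 23.3% of all genes. Sufficient-iron replicate 6 is 1 mouse, and no test of a single library was made.

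**Figure D2:**
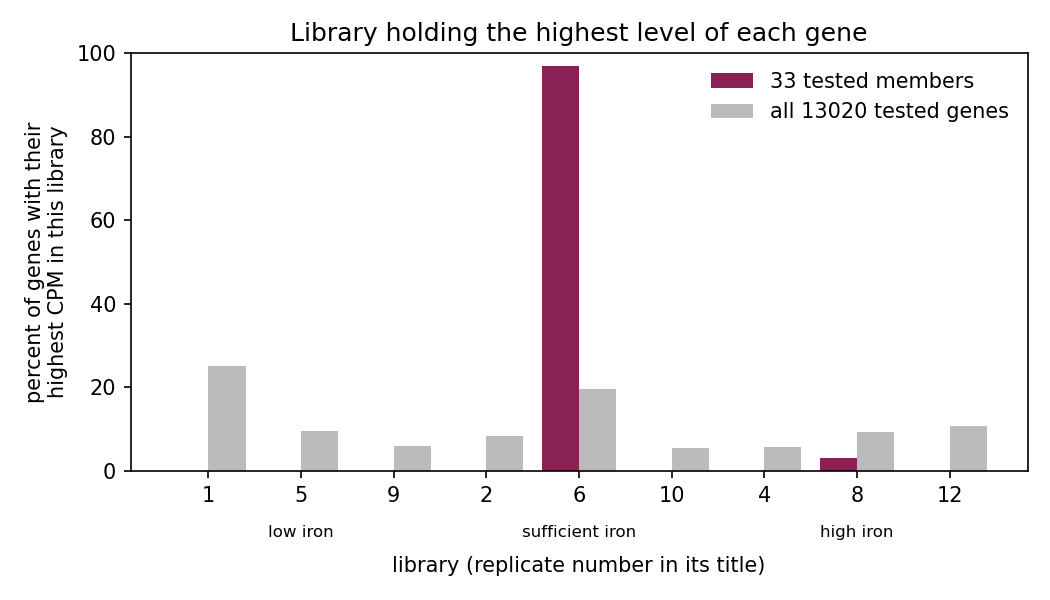
Percent of genes (y axis) whose highest CPM among the 9 libraries lies in the library named on the x axis, for the 33 tested members (dark bars) and all 13020 tested genes (grey bars). Sufficient-iron replicate 6 holds 97% of the members and 19.6% of all genes.

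Among the D cyclins, Ccnd1 was lowest in low iron and Ccnd3 highest in high iron, an order that remained without sufficient-iron replicate 6. Ccnd1 encodes cyclin D1, the D cyclin that hepatocytes induce on leaving rest. Its level was 19.97, 13.02 and 21.7 CPM in low-iron livers, 31.7, 72.9 and 39.4 CPM in sufficient-iron livers and 36.7, 43.6 and 41.8 CPM in high-iron livers. Each low-iron library was below every library of both other diets. The means were 18.2 ± 4.58 CPM in low iron, 48.0 ± 21.9 in sufficient iron and 40.7 ± 3.57 in high iron (SD, n = 3 each).

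In low over sufficient iron the log2 fold change of Ccnd1 was -1.40 ± 0.29 (SE), with an edgeR adjusted p of 0.45 and rank 9 of 13020 genes by p. Over the 16 alternatives that gave one, this adjusted p ran from 0.354 to 0.835. In high over low iron the fold change was 1.16 ± 0.29 with an edgeR adjusted p of 0.13. Here 3 of 17 alternatives passed the threshold, over a range of 0.00656 to 0.357. These were DESeq2 at 0.00656, the edgeR fit without sufficient-iron replicate 6 at an adjusted p of 0.0257 and the edgeR fit of the 6 libraries of these diets at 0.0394. In high over sufficient iron the edgeR fold change was -0.24 ± 0.28 (adjusted p = 0.78), and without sufficient-iron replicate 6 it was 0.19.

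Ccnd3, the cyclin D3 gene, stood apart from the other members by being highest in high iron. It had 18.8, 20.3 and 19.0 CPM in low-iron livers, 19.6, 19.0 and 21.1 CPM in sufficient-iron livers and 23.4, 28.5 and 27.2 CPM in high-iron livers. Each high-iron library was above every other library. The edgeR log2 fold change was 0.41 ± 0.11 in high over sufficient iron (adjusted p = 0.23, and 0.544 without sufficient-iron replicate 6) and 0.44 ± 0.11 in high over low iron (adjusted p = 0.12). Only DESeq2, at an adjusted p of 0.0227, passed the threshold among the 17 alternatives of high over low iron, over a range of 0.0227 to 0.357. Low and sufficient iron overlapped, with a log2 fold change of -0.04.

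Ccnd2, the cyclin D2 gene, had 6.87, 12.0 and 11.1 CPM in low-iron livers, 10.2, 13.9 and 12.0 CPM in sufficient-iron livers and 12.7, 9.97 and 10.3 CPM in high-iron livers. The diets overlapped throughout. Summed over the 3 D cyclins, the level was 45.6, 45.3 and 51.8 CPM in low-iron livers, 61.4, 105.8 and 72.5 CPM in sufficient-iron livers and 72.9, 82.0 and 79.3 CPM in high-iron livers. Low iron lay below both other diets in this sum. Per kilobase of exon, the mean over the 9 libraries was 7.57 CPM for Ccnd1, 2.49 for Ccnd3 and 1.17 for Ccnd2. In the GENCODE M21 annotation 23.4% of the exonic bases of Ccnd1 are shared with LTO1, and reads there may be missing from the count.

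**Figure D3:**
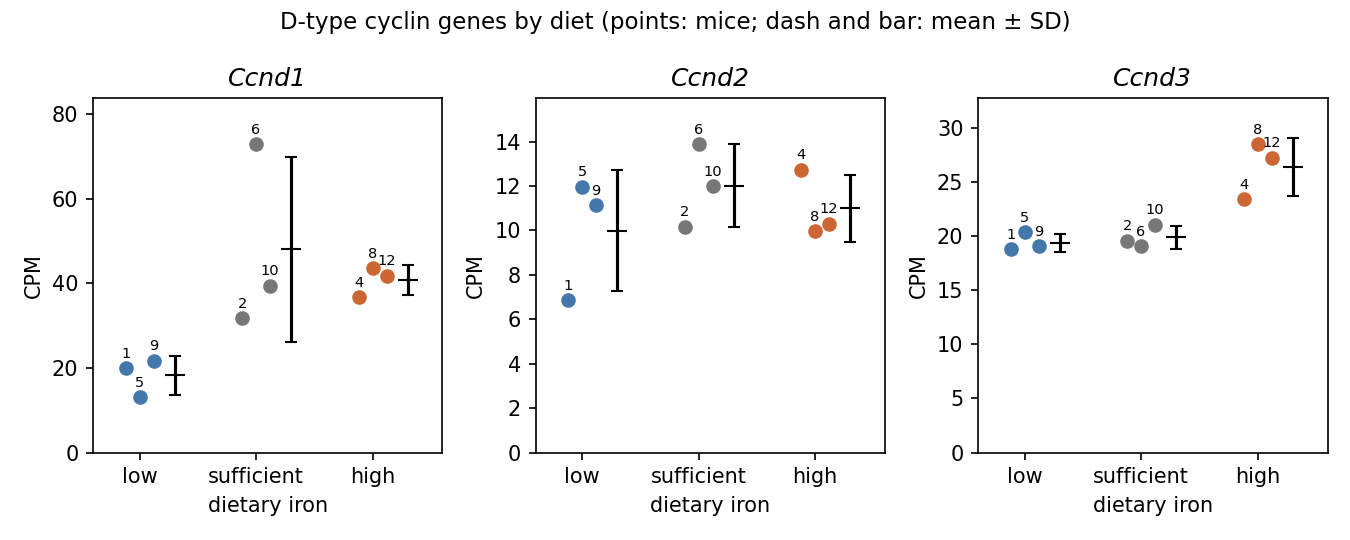
CPM (y axis, from 0) of Ccnd1, Ccnd2 and Ccnd3 in the 9 libraries, with a numbered point for each mouse by diet and, in black, the mean with its SD (n = 3). The 3 low-iron points of Ccnd1 (13.02 to 21.7 CPM) lie under all others, and the 3 high-iron points of Ccnd3 (23.4 to 28.5 CPM) lie over all others.

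Markers of some other liver cells moved with the same contrast as Ccnd1, and others did not. In low over sufficient iron 50.6% of all tested genes had a fold change below 0, the share to set beside the counts that follow. The summed level of 9 Kupffer cell markers was 125.4 to 283.6 CPM in low iron, against 281.1 to 444.8 CPM in sufficient iron, and 9 of 9 had a fold change below 0. These ranges overlapped slightly, and the 238.7 to 297.4 CPM of high iron overlapped low iron as well. For 8 monocyte and neutrophil markers the sums were 17.6 to 35.2 CPM in low iron, against 38.5 to 72.95 CPM in sufficient iron, with 8 of 8 fold changes below 0. The sum of 6 cholangiocyte markers was 28.0 to 36.6 CPM in low iron, against 40.3 to 73.0 CPM in sufficient iron, with 5 of 6 fold changes below 0. Krt7 went the other way, with a log2 fold change of 0.149. Spp1 made up most of this sum, with 21.7 of the 28.0 CPM in low-iron replicate 1 and 63.6 of the 73.0 CPM in sufficient-iron replicate 6. In high iron the cholangiocyte sum was 33.3 to 71.4 CPM, against the same 28.0 to 36.6 CPM in low iron, and the monocyte and neutrophil sum was 35.8 to 43.5 CPM, against 17.6 to 35.2 CPM. The sum of 6 hepatocyte markers was lower in each high-iron library than in each low-iron library, at 43600 to 53840 CPM against 58870 to 67510 CPM. Most of this sum was Alb, with 47900 of the 58870 CPM in low-iron replicate 5. Taken singly, 6 of 6 hepatocyte markers had a fold change below 0 in high over low iron (51.2% of all genes). Without overlap, 3 of 6 were lower (8.15% of all genes). Thus low iron stood apart from both other diets without overlap in the monocyte and neutrophil sum, as it did in Ccnd1. The margin to high iron was small in that sum, at 35.2 against 35.8 CPM. Lyz2 made up most of the sum, with 27.2 of the 35.2 CPM in low-iron replicate 9. By the median over markers of log2 CPM relative to each gene's mean, the diets overlapped for this list. That median was -0.851 to 0.144 in low iron, 0.1 to 0.841 in sufficient iron and -0.404 to 0.495 in high iron. Of its 8 markers, 3 had a fold change below 0 in high over low iron. In low over sufficient iron 7 of 7 stellate cell and 6 of 6 endothelial markers were below 0, with medians of -0.357 and -0.321. Hepatocyte markers went the other way, with 6 of 6 above 0 and a median of 0.373. Without sufficient-iron replicate 6 these medians were -0.07, -0.17 and 0.43. T and NK cell markers did not follow, with 3 of 7 fold changes below 0 in low over sufficient iron and a median of 0.003. Of the B cell markers 4 of 5 were below 0, and their sums overlapped, at 3.26 to 3.67 CPM in low iron and 3.46 to 5.96 CPM in sufficient iron. The part of these cell types in the Ccnd1 result was not tested.

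Of the genes of entry into S phase, Ccne1 and Ccne2 had low levels and E2f1 a higher one. Both cyclin E genes were lower in each low-iron library than in each sufficient-iron library, by small margins and on few reads. For Ccne1 it was close to a tie, at 0.6343 CPM (18 reads, low-iron replicate 9) against 0.6347 CPM (23 reads, sufficient-iron replicate 10). Ccne1, a cyclin that activates CDK2, had 0.546, 0.402 and 0.634 CPM in low-iron livers, 0.765, 1.01 and 0.635 CPM in sufficient-iron livers and 0.234, 0.629 and 0.962 CPM in high-iron livers. Ccne2, the other cyclin E gene, had 0.312, 0.22 and 0.388 CPM in low-iron livers, 0.547, 0.575 and 0.552 CPM in sufficient-iron livers and 0.167, 0.472 and 0.481 CPM in high-iron livers. Ccne2 was higher in each sufficient-iron library than in every other library, on 4 to 25 reads a library. Its log2 fold change was -0.61 in high over sufficient iron (edgeR adjusted p = 0.65) and -0.86 in low over sufficient iron (edgeR adjusted p = 0.46), and without sufficient-iron replicate 6 these were -0.59 and -0.84. E2f1, the activating E2F factor, ranged over 3.28 to 4.32 CPM in low iron, 3.12 to 4.35 CPM in sufficient iron and 3.10 to 4.25 CPM in high iron, so that the diets overlapped.

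The replication genes were highest in sufficient-iron replicate 6, by a smaller margin than the mitotic genes. Mcm6, a subunit of the replicative helicase, had 2.03, 3.48 and 3.52 CPM in low-iron livers, 4.48, 10.2 and 4.31 CPM in sufficient-iron livers and 3.44, 4.18 and 3.85 CPM in high-iron livers. Mcm5, another subunit, had 1.48, 2.49 and 2.47 CPM in low-iron livers, 2.62, 6.03 and 2.51 CPM in sufficient-iron livers and 2.54, 2.58 and 2.19 CPM in high-iron livers. Mcm2 had 2.42, 4.21 and 3.07 CPM in low-iron livers, 3.83, 8.40 and 3.70 CPM in sufficient-iron livers and 3.95, 3.90 and 3.79 CPM in high-iron livers. For each of these 3 genes the other sufficient-iron libraries lay within or just above the range of the other diets. Mcm3 had 2.34, 4.10 and 3.98 CPM in low-iron livers, 4.85, 7.34 and 4.42 CPM in sufficient-iron livers and 3.88, 4.09 and 4.33 CPM in high-iron livers. Mcm4 ranged over 2.65 to 6.22 CPM in low iron, 4.39 to 8.12 CPM in sufficient iron and 4.72 to 5.02 CPM in high iron. Mcm7 had 8.19, 9.04 and 8.99 CPM in low-iron livers, 7.07, 11.4 and 7.78 CPM in sufficient-iron livers and 7.09, 8.05 and 7.05 CPM in high-iron livers. Thus Mcm7 was lower in each high-iron library than in each low-iron library, and 12.6% of its exonic bases are shared with other genes.

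Sufficient-iron replicate 6 was 2.30 times the next highest library for Mcm5, 2.26 times for Mcm6 and 2.00 times for Mcm2. Summed over Mcm2 to Mcm7, it held 51.5 CPM, against 27.5 and 27.1 CPM in the other sufficient-iron livers, 19.1 to 29.5 CPM in low iron and 25.8 to 27.5 CPM in high iron. Pcna, the sliding clamp of the fork, had 22.8, 21.8 and 23.5 CPM in low-iron livers, 20.4, 25.3 and 20.01 CPM in sufficient-iron livers and 19.0, 20.9 and 22.3 CPM in high-iron livers. For Pcna the same library was 1.08 times the next highest. Per kilobase of exon Pcna had the highest level of the 34 members, 9.07 CPM averaged over the 9 libraries.

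Mcm3, Mcm5 and Mcm6 were the helicase genes whose groups did not overlap in low and sufficient iron. In all, 6 of 33 members were lower without overlap in low than in sufficient iron (Ccnd1, Ccne1, Ccne2, Mcm3, Mcm5 and Mcm6), against 7.83% of all genes, and 0 were higher, against 8.81%. The gap was narrow for Ccne1, at 0.6343 against 0.6347 CPM, and for Mcm5, at 2.49 against 2.51 CPM. In high against sufficient iron 3 were lower without overlap (Ccne2, Mcm3 and Mcm6), against 8.85% of all genes, and 1 was higher (Ccnd3), against 8.99%. In high against low iron 2 were higher (Ccnd1 and Ccnd3), against 7.59% of all genes, and 1 was lower (Mcm7), against 8.15%. The log2 fold change of Mcm6 in low over sufficient iron was -1.04 ± 0.34 (edgeR adjusted p = 0.45), and -0.51 without sufficient-iron replicate 6 (edgeR adjusted p = 0.835).

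Nucleotide supply followed the replication genes in part. Rrm1, the large subunit of ribonucleotide reductase, had 5.62, 8.01 and 9.02 CPM in low-iron livers, 7.73, 13.4 and 6.29 CPM in sufficient-iron livers and 7.52, 5.38 and 8.28 CPM in high-iron livers. Rrm2, the small subunit that carries the iron centre, had 3.90, 4.13 and 4.79 CPM in low-iron livers, 5.28, 6.81 and 3.95 CPM in sufficient-iron livers and 3.04, 4.31 and 4.54 CPM in high-iron livers. Tyms, thymidylate synthase, ranged over 5.60 to 6.24 CPM in low iron, 4.55 to 6.26 CPM in sufficient iron and 4.06 to 5.88 CPM in high iron. The diets overlapped for all 3, and in Tyms sufficient-iron replicate 6 was level with low-iron replicate 1. For Rrm2 the log2 fold change was -0.32 in low over sufficient iron, with an edgeR adjusted p of 0.56.

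Mitotic genes stood furthest above the other libraries in sufficient-iron replicate 6. Cdc20, which activates the anaphase-promoting complex and whose promoter is shown above, had 0.234, 0.293 and 0.846 CPM in low-iron livers, 0.583, 4.90 and 0.331 CPM in sufficient-iron livers and 0.268, 0.724 and 0.374 CPM in high-iron livers. In reads, sufficient-iron replicate 6 held 213 and the other libraries 3 to 24. That library was 5.80 times the next highest.

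Ccnb1, the cyclin that drives CDK1 into mitosis, had 0.39, 0.146 and 0.74 CPM in low-iron livers, 0.255, 3.59 and 0.442 CPM in sufficient-iron livers and 0.268, 0.472 and 0.321 CPM in high-iron livers. Ccnb2, its relative, had 0.156, 0.439 and 0.634 CPM in low-iron livers, 0.62, 3.22 and 0.442 CPM in sufficient-iron livers and 0.167, 0.409 and 0.481 CPM in high-iron livers. In both B cyclins the 8 other libraries overlapped across the diets, and sufficient-iron replicate 6 stood 4.85 times (Ccnb1) and 5.08 times (Ccnb2) above the next highest.

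Mki67, the proliferation antigen Ki-67, had 1.17, 2.09 and 3.00 CPM in low-iron livers, 2.51, 11.8 and 2.76 CPM in sufficient-iron livers and 1.74, 2.55 and 2.67 CPM in high-iron livers. Top2a, the topoisomerase that untangles chromosomes, had 0.468, 1.87 and 2.08 CPM in low-iron livers, 1.60, 7.20 and 1.82 CPM in sufficient-iron livers and 1.04, 1.70 and 1.71 CPM in high-iron livers. Plk1, a mitotic kinase, had 0.468, 0.366 and 0.423 CPM in low-iron livers, 0.146, 1.77 and 0.304 CPM in sufficient-iron livers and 0.1, 0.503 and 0.16 CPM in high-iron livers. Apart from sufficient-iron replicate 6 the sufficient-iron libraries of Plk1 lay below all 3 low-iron libraries in CPM. This rested on few reads, 4 and 11 in sufficient iron against 6, 10 and 12 in low iron.

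The kinase Cdk1 had 0.312, 0.878 and 1.52 CPM in low-iron livers, 1.53, 3.61 and 1.19 CPM in sufficient-iron livers and 0.736, 1.23 and 1.07 CPM in high-iron livers. Its cyclin Ccna2 had 1.01, 1.21 and 0.952 CPM in low-iron livers, 1.13, 3.59 and 0.993 CPM in sufficient-iron livers and 0.769, 0.944 and 1.07 CPM in high-iron livers. Foxm1, a transcription factor of the mitotic genes, had 0.39, 0.146 and 0.634 CPM in low-iron livers, 0.547, 1.75 and 0.552 CPM in sufficient-iron livers and 0.435, 0.724 and 0.374 CPM in high-iron livers. Again the 8 other libraries overlapped across diets for each gene. Mybl2, the gene of B-MYB and not a member, was not highest in sufficient-iron replicate 6. It had 0.23 CPM there on 10 reads, against 0.183 to 0.437 CPM elsewhere, and was not among the tested genes. Bub1, left out of the test, had 48 reads in sufficient-iron replicate 6 (1.11 CPM, 95% Poisson interval 0.815 to 1.47) and 1 to 10 reads elsewhere (at most 0.276 CPM).

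The remaining mitotic members were Bub1b of the spindle checkpoint, Aurka and Aurkb (Aurora kinases), Birc5 and Cdca8 (survivin and borealin, which guide Aurora B), Nusap1 of the spindle and the motors Kif11 and Kif20a. All were highest in sufficient-iron replicate 6. Their smallest margin was that of Aurka, with 3.50 CPM there and 1.76 to 2.88 CPM elsewhere. Kif20a shares 29.3% of its exonic bases with Cdc23, so its count is less certain.

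Over the 18 mitotic members the summed level was 62.3 CPM in sufficient-iron replicate 6 (95% Poisson interval 59.95 to 64.67, from 2706 reads, for counting error only). The others held 11.1, 15.9 and 19.7 CPM in low iron, 16.7 and 17.3 CPM in sufficient iron and 12.1, 17.9 and 15.9 CPM in high iron. Thus that library stood at 3.82 times the median of the other 8, and those 8 spanned 11.1 to 19.7 CPM with no separation by diet. Its ratio to that median was 1.65 to 13.9 over the 18 mitotic members, with a median of 3.69, and 1.18 to 2.75 over the 7 replication members, with a median of 1.79. Over all tested genes the median ratio was 0.997. All 18 mitotic members were highest there, 14 of them by at least 2 times.

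**Figure D4:**
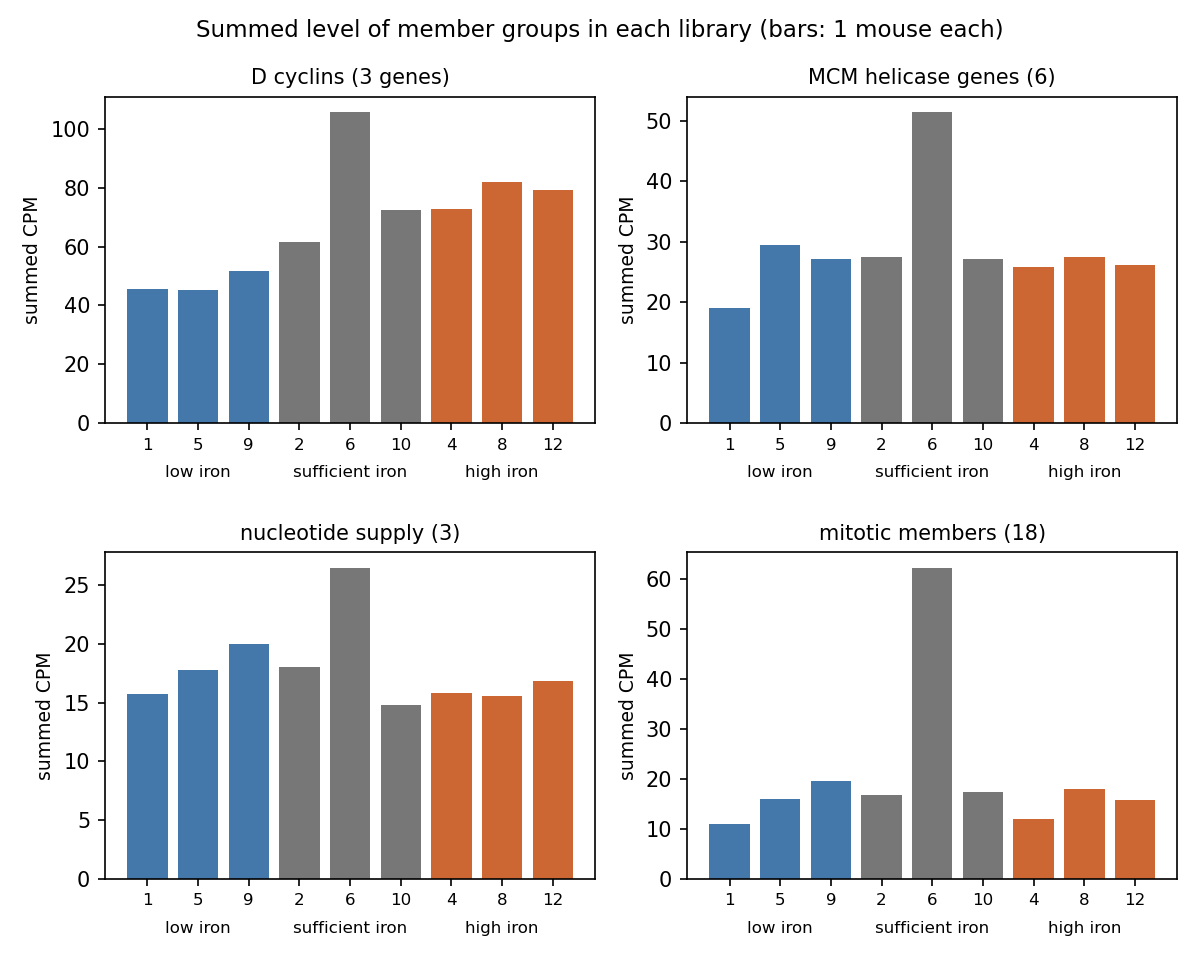
Summed CPM (y axis, from 0) of the 3 D cyclins, the 6 MCM helicase genes, the 3 nucleotide supply genes and the 18 mitotic members, with a bar for each library (1 mouse) by diet (blue low, grey sufficient, orange high iron) and title number. Sufficient-iron replicate 6 holds 62.3 CPM of the mitotic members, against 11.1 to 19.7 CPM in the other 8.

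Some other values of the same library were high as well, and others lay within the range of the other libraries. The summed level of 7 stellate cell markers was 371 CPM there, against 175.3 to 283.7 CPM in the other libraries, and 7 of 7 were highest there, Col1a1 by 2.02 times. Cholangiocyte markers stood at 73.0 CPM, against 28.0 to 71.4 CPM, with 1 of 6 highest there, and Spp1 made up 63.6 of the 73.0 CPM. Of the endothelial markers 2 of 6 were highest there, and their sum of 214.2 CPM lay within the 116.6 to 225.6 CPM of the other libraries. Over all tested genes 19.6% were highest there. Among immune cells, the summed levels lay within the range of the other libraries. Kupffer markers stood at 336.8 against 125.4 to 444.8 CPM (0 of 9 highest), and monocyte and neutrophil markers at 64.6 against 17.6 to 73.0 CPM (3 of 8 highest). T and NK cell markers stood at 2.83 against 2.04 to 4.41 CPM (0 of 8), and B cell markers at 3.94 against 3.26 to 5.96 CPM (0 of 5). Lyz2 made up 50.3 of the 64.6 CPM of the monocyte and neutrophil sum there. By the median over markers of log2 CPM relative to each gene's mean, the monocyte and neutrophil list was highest there, at 0.841 against -0.851 to 0.495. By that median the other immune lists stayed within range. Granulocyte precursor markers were close to 0 throughout (0.253 against 0.0366 to 0.427 CPM) with Ctsg at 0 in all 9. Of 8 erythroid markers the 4 globin genes were listed at 0 in all 9, and the sum of the list was 63.6 CPM, against 30.3 to 128.7 CPM. Nearly all of that sum was Alas2, the erythroid heme synthesis enzyme, with 62.3 of the 63.6 CPM there, and Alas2 was itself lower in high than in low iron (edgeR adjusted p = 0.0114). The library also had the most gene reads and the lowest Rn45s share. The part of these in the result was not tested. On raw totals without Rn45s and Lars2 the mitotic sum was 3.79 times the median of the other 8. That changes only the totals and is no test of the Rn45s share or of depth.

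Many fold changes against sufficient iron moved toward 0 or past it without that library. Of the 33 members, 12 changed sign in high over sufficient iron and 13 in low over sufficient iron. Cdc20 had a log2 fold change of -2.09 ± 0.93 in high over sufficient iron (edgeR adjusted p = 0.54) with all libraries and 0.05 without it, and -2.01 ± 0.94 in low over sufficient iron (edgeR adjusted p = 0.45) with all libraries and 0.13 without it. Ccnb1 had a log2 fold change of -2.03 in high over sufficient iron and 0.006 without that library, and -1.76 in low over sufficient iron and 0.28 without it. For Mki67 the fold changes were -1.32 and -0.20 without it in high over sufficient iron, and -1.41 and -0.29 without it in low over sufficient iron. Part of the fold change remained for others, with an SE of similar size to what remained. In high over sufficient iron Ccnb2 had -2.09, and -0.62 ± 0.54 (SE) without that library. Cdk1 had -1.08 and -0.42 ± 0.45 without it, and Bub1b -0.98 and -0.46 ± 0.39 without it. In low over sufficient iron Cdk1 had -1.14 and -0.47 ± 0.46 without it, and Bub1b -1.02 and -0.49 ± 0.39 without it. None of these passed the threshold with or without that library (lowest edgeR adjusted p = 0.4455). Without it, 1 member had an unadjusted p under 0.05 in high over sufficient iron (Ccnd3), against 6.19% of all genes, and 1 in low over sufficient iron (Ccnd1), against 5.38%.

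**Figure D5:**
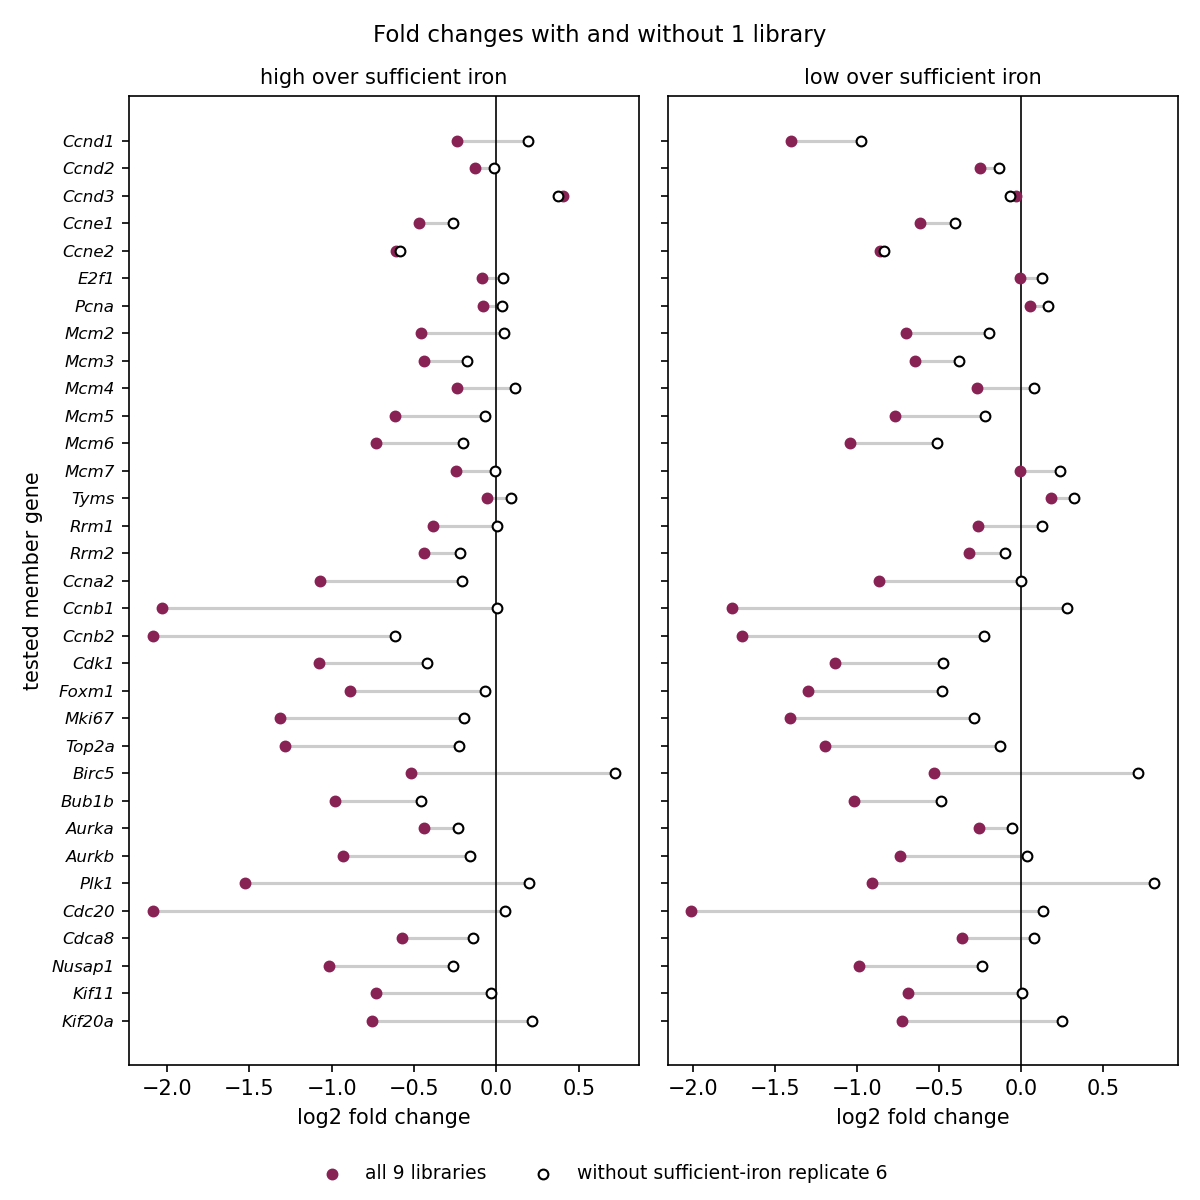
Log2 fold change (x axis) of the 33 tested members in high over sufficient iron (left) and low over sufficient iron (right), from all 9 libraries (filled) and without sufficient-iron replicate 6 (open). Open points of the mitotic genes lie closer to 0 than the filled ones in most rows, though Ccnb2 remains at -0.62 and Cdk1 at -0.42 in high over sufficient iron, and Ccnd1 stands at -0.97 in low over sufficient iron.

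Other genes of the cell cycle, from lists chosen by function, gave 0 past the threshold in any pairwise comparison, out of 104 tested in 7 lists. The 20 tested of 25 further mitotic genes repeated the pattern: 17 were highest in sufficient-iron replicate 6 and 12 by at least 2 times, with a sum over the list of 82.0 CPM there and 45.3 to 56.6 CPM elsewhere. Their median log2 fold change was -0.93 in high over sufficient iron and -0.74 in low over sufficient iron, and -0.02 and 0.09 without that library. Among them Hmmr, a spindle protein, had 1.79, 1.46 and 1.59 CPM in low-iron livers, 2.11, 5.34 and 2.18 CPM in sufficient-iron livers and 1.67, 1.73 and 2.08 CPM in high-iron livers. Kif2c, a microtubule depolymerase, stood at 1.34 CPM in that library and at most 0.364 CPM elsewhere.

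Regulators outside mitosis were less alike. Cdkn1a, the CDK inhibitor p21, had 7.26, 4.98 and 4.19 CPM in low-iron livers, 7.87, 19.7 and 5.16 CPM in sufficient-iron livers and 6.59, 5.47 and 4.33 CPM in high-iron livers, so that the inhibitor was highest in the same library as the mitotic genes. Of 6 tested CDK inhibitors 3 were highest there. Over all tested genes 19.6% were highest there and 0.753% by at least 2 times, the shares to set beside the counts that follow. Among the pocket proteins, E2Fs and CDKs 3 of 16 were highest there, and Rbl1, the pocket protein p107, was 1.09 to 1.79 CPM in low iron, 2.26 to 3.96 CPM in sufficient iron and 1.87 to 2.27 CPM in high iron. Of 16 origin licensing and firing genes 4 were highest there and 0 by 2 times, and of 20 DNA synthesis genes 8 and 0. Uhrf1, which carries DNA methylation through replication, had 0.702, 0.585 and 0.388 CPM in low-iron livers, 0.802, 2.30 and 1.19 CPM in sufficient-iron livers and 0.334, 0.629 and 0.694 CPM in high-iron livers. Tgfa, a growth factor of hepatocytes, had 19.97, 20.2 and 20.6 CPM in low-iron livers, 20.3, 22.4 and 22.5 CPM in sufficient-iron livers and 27.4, 26.3 and 24.3 CPM in high-iron livers, with each high-iron library above all others. In the 3-diet test the edgeR adjusted p was 0.283 for Uhrf1, 0.288 for Rbl1, 0.289 for Tgfa and 0.463 for Cdkn1a. In the p53 target list 4 of 10 were highest in sufficient-iron replicate 6 and 0 by 2 times, and in the list of growth signals and immediate early genes 4 of 16 and 0.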

How the data were processed

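For each liver the deposited table holds raw read counts by gene symbol, for 23420 genes, and 5 category entries that were left out of library sizes and tests. FastQC, mm10 and mm9 are named, without a role, in the submitters' processing notes. Which aligner, counting program and strand setting were used is not given in the sources used here. RNA came from separate mice, so p-values measure the spread between mice.

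From these counts, R 4.3.3 with edgeR 4.0.16 filtered genes with filterByExpr (13020 left), scaled library sizes by TMM, gave CPM, and log2 CPM with a prior count of 2, and fitted a robust quasi-likelihood model of diet, with no covariate, on the 9 libraries together. Benjamini-Hochberg adjustment ran over all 13020 genes. The fit was tested on simulated data. DESeq2 1.42.0 and limma-voom (limma 3.58.1) were alternatives, beside other filters, scalings and thresholds and each library left out. Exonic lengths came from GENCODE M21 and promoters from RefSeq.

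All 34 members were named. From other pathway lists, genes past the threshold, or else at most 3 with the lowest 3-diet p, could be named. Mybl2 was named beside these as the gene of B-MYB, and single markers were named to describe their lists. The members and lists were chosen with earlier results of these data known. Intervals are exact Poisson 95% intervals.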

Additional observations from a re-analysis of the deposited data

How the results depend on the processing

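With 3 mice a diet and few reads for several mitotic members (213 of Cdc20 in sufficient-iron replicate 6 and 3 to 24 elsewhere), precision was limited, and the size of difference that could be detected was not measured. No paired analysis was possible because the diets share no title number and the labels tie no library of one diet to one of another. Genes called in high over sufficient iron, 28, became 45 without a filter, 218 with DESeq2 and 66 at an adjusted p under 0.1, and in low over sufficient iron DESeq2 called 105 in place of 0, among the 1156 genes to which it gave an adjusted p, none of them a member. In high over low iron 66 became 365 with DESeq2 and 168 at 0.1, and over the 3 diets 28 became 52 without a filter, 413 with DESeq2 and 96 at 0.1. Members called in high over low iron, 0, became 2 with DESeq2 and 1 in the fit of the 6 libraries compared, and over the 3 diets 2 with DESeq2. Leaving out each library in turn gave 0 to 56 genes in high over sufficient iron (0 without high-iron replicate 4, each of the 9 moving it by over 1.5 times), 0 to 1 in low over sufficient iron, 0 to 112 in high over low iron (0 without high-iron replicate 8, 112 without sufficient-iron replicate 6) and 0 to 68 over the 3 diets. It gave 0 to 1 members in high over low iron (Ccnd1, without sufficient-iron replicate 6). The member median then ran from -0.85 to -0.069 in high over sufficient iron and from -0.94 to -0.071 in low over sufficient iron, the end near 0 being without sufficient-iron replicate 6. The level of sufficient-iron replicate 6 over the median of the others, 3.82 for the mitotic sum, was 3.26 when taken from the median over members of log2 CPM (prior count 2) relative to each gene's mean. For the replication sum it was 1.67 on raw totals and 1.80 by that log2 median in place of 1.60, and for the D cyclins 1.25 by it in place of 1.58. The cause of these moves was not tested.

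Over all 33 tested members, leaving out sufficient-iron replicate 6 reversed 12 fold changes in high over sufficient iron, 13 in low over sufficient iron and 0 in high over low iron. Leaving out each of the other 8 libraries reversed 1, 4 and 39 of 264 values in the same comparisons, and the settings that left out no single library reversed 0 of 252, 2 of 252 and 2 of 248. Of the 37 fold changes followed singly under every setting, 9 reversed, each with 1 library left out. In high over sufficient iron these ran from -0.46 to 0.19 for Ccnd1, -0.68 to 0.045 for Mcm2, -2.49 to 0.0059 for Ccnb1, -2.66 to 0.052 for Cdc20 and -0.15 to 0.033 for Pcna. In low over sufficient iron they ran from -1.19 to 0.00082 for Ccna2, -2.64 to 0.28 for Ccnb1, -2.87 to 0.13 for Cdc20 and -0.022 to 0.16 for Pcna. For all but Pcna in low over sufficient iron, the reversed value was that without sufficient-iron replicate 6.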

Other observations

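Mcm10, a replication initiation factor from the list of origin licensing genes, did not share the pattern of the MCM helicase subunits. Its level was 49.6, 57.8 and 68.3 CPM in low-iron livers, 41.1, 28.9 and 45.9 CPM in sufficient-iron livers and 32.5, 49.8 and 53.4 CPM in high-iron livers. Sufficient-iron replicate 6, the highest library for 32 members, was the lowest for Mcm10. Per kilobase of exon Mcm10 had 6.17 CPM on average, rank 3 among the 34 members, Mcm10 and Cdkn1a.

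Among the genes that stood furthest above every other library in sufficient-iron replicate 6, chosen after their values were seen, several have no part in mitosis. Mmp12, a macrophage elastase, had 8.63 CPM there and at most 1.60 CPM elsewhere. Gpnmb, a glycoprotein of lipid-laden macrophages, had 3.50 CPM there and at most 0.641 CPM elsewhere, and Mmp13, a collagenase, 2.601 CPM and at most 0.635 CPM. The stress factor Atf3 had 8.95 CPM there and at most 2.57 CPM elsewhere. These genes stood beside Cdc20, Ccnb2, Ccnb1 and Mki67 among the 20 with the largest ratio to the next highest library.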
